A study of Kryptolebias marmoratus with 5 samples.

Results

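The genes described here make melanin or build the organelle that holds it. They were chosen by symbol, as *mitfa*, *dct*, *tyr*, *tyrp1a*, *tyrp1b*, *pmela*, *pmelb*, *oca2*, *slc24a5* and *slc45a2*. No measured value entered this rule, but earlier results of these data were known when the genes were chosen. Of these 10 symbols, 9 were found among the 22090 genes of the *Kryptolebias marmoratus* annotation, and *tyrp1a* was not found under that symbol. Of the 9 genes, 8 had reads in all 5 libraries and 6 reached the minimum mean of 2 CPM, the read count of a gene scaled to library size, used for comparisons across all genes. *tyrp1b*, *slc24a5* and *pmelb* lay below that minimum and are given as values with counting intervals.

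RNA-seq was performed on whole embryos of the mangrove killifish, a self-fertilizing fish, in a study of tail development. *stl* (shorttail) and *btl* (balltail) embryos show the tail phenotypes of the recessive ENU-induced lines R109 and R228, in which the study assigned the mutations to *noto* and *msgn1*. The labels name the *stl* and *btl* pools as (-/-), or homozygous, mutants. *stl*-sibling and *btl*-sibling embryos were the phenotypically normal embryos of the same lines, sorted by morphology and not by genotype, and WT was the parental strain *Hon9*. The labels place every pool at St.17, with embryos of St.16 and St.18 possible, and give between 20 and 25 embryos for each pool. The methods of the study also give St.16 to St.18, whereas its results give a later somite stage.

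Each of the 5 groups was 1 library, so none of the differences has a replicate check, and every comparison is of these libraries and not of conditions. The estimated reads per library were between 9147625 in *btl* and 12220249 in *btl*-sibling. Intervals are exact 95% intervals for the number of reads and cover counting error only. In whole embryos, fewer pigment cells and less RNA per pigment cell cannot be told apart.

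Melanin is made from tyrosine inside melanosomes, in the melanophores that descend from the neural crest and in the retinal pigment epithelium of the eye. The transcription factor Mitf switches on the pigment programme, Pmel builds the fibrils on which melanin is laid down, the tyrosinase family carries out the synthesis, and membrane transporters set the ionic conditions within the melanosome. In fish embryos these genes come on before pigment can be seen, and their levels climb as pigmentation proceeds, so that they are often read as a sign of developmental progress.

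All positions are on ASM164957v2, and the reads were those of the coding sequences. *pmela* (gene 108235795) lies on linkage group 4 at 16106546 to 16113265, and *mitfa* (gene 108247580) lies on the same linkage group at 23951451 to 23975795. Each of the other genes is on a linkage group of its own. *tyr* (gene 108244618) is on linkage group 2 at 16536122 to 16542243, *tyrp1b* (gene 108241576) on linkage group 3 at 7380499 to 7389057 and *dct* (gene 108239787) on linkage group 6 at 12977766 to 12982573. *pmelb* (gene 108247624) is on linkage group 8 at 4755090 to 4770305, *slc45a2* (gene 108230913) on linkage group 14 at 13003701 to 13024685, *slc24a5* (gene 108228662) on linkage group 15 at 717764 to 724872 and *oca2* (gene 108240153) on linkage group 24 at 19839212 to 19898371.

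**Figure D1:**
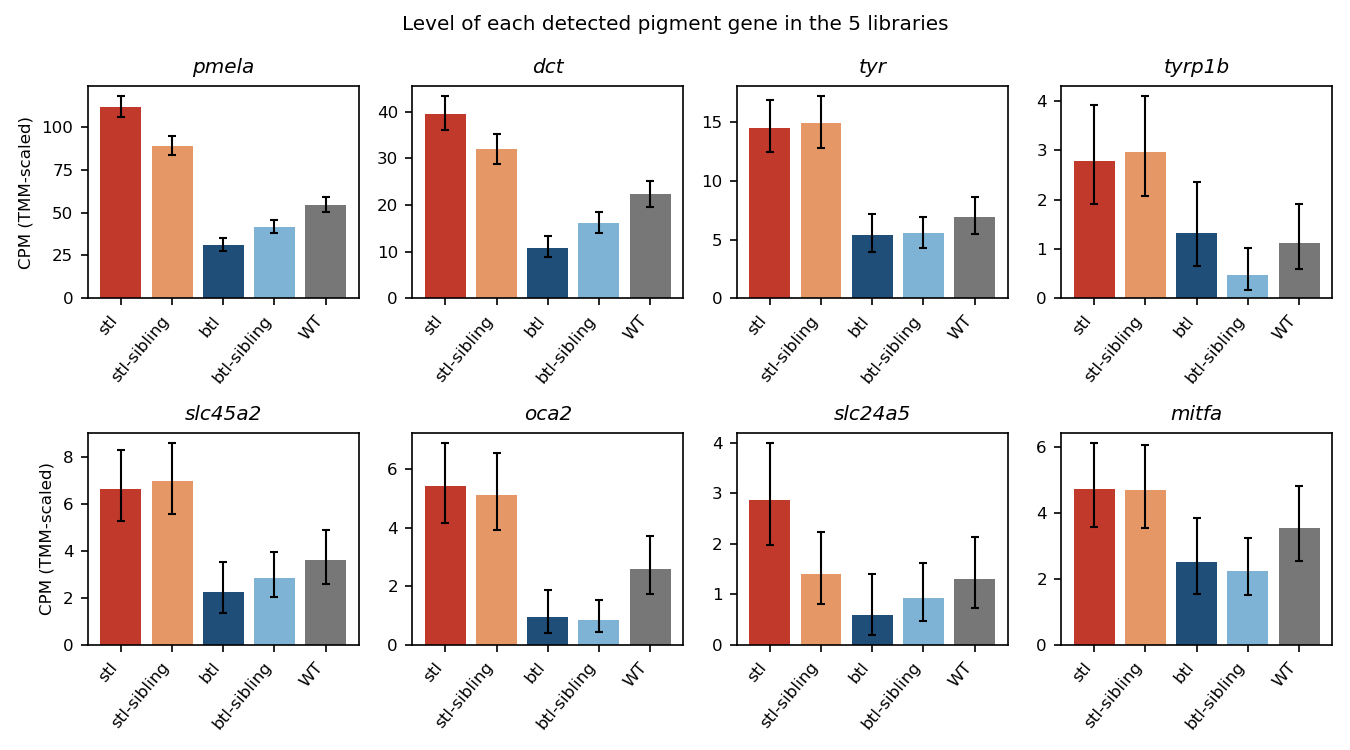
CPM of the 8 detected pigment genes in the *stl*, *stl*-sibling, *btl*, *btl*-sibling and WT libraries, with 1 bar per library and exact Poisson 95% intervals of the reads as error bars. The *stl* and *stl*-sibling bars stood above the other 3 in every panel, with the smallest gap for *slc24a5*, at 1.40 CPM in *stl*-sibling against 1.30 CPM in WT.

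Among the structural proteins, *pmela*, which encodes the amyloid-forming protein of the melanosome fibrils, was the most abundant of the set. Its level was 111.7 CPM in *stl*, 89.0 CPM in *stl*-sibling, 31.1 CPM in *btl*, 41.8 CPM in *btl*-sibling and 54.4 CPM in WT, from 1324, 1084, 260, 538 and 630 reads in that order. The order of the 5 libraries was therefore *stl*, *stl*-sibling, WT, *btl*-sibling and *btl*, and no interval overlapped its neighbour in that order, the nearest pair being *btl*-sibling at 38.4 to 45.5 CPM and *btl* at 27.4 to 35.1 CPM. The highest level was 3.59 times the lowest. *pmelb*, its duplicate gene, had 0 reads in all 5 libraries, and a count of 0 allows up to 3 reads as a one-sided limit, or 0.253 CPM in *stl*, 0.246 CPM in *stl*-sibling, 0.359 CPM in *btl*, 0.233 CPM in *btl*-sibling and 0.259 CPM in WT.

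Of the synthetic enzymes, *dct*, which encodes dopachrome tautomerase and is an early marker of melanoblasts, was the most abundant. It stood at 39.6 CPM in *stl*, 32.0 CPM in *stl*-sibling, 10.9 CPM in *btl*, 16.2 CPM in *btl*-sibling and 22.3 CPM in WT. The order of the libraries was that of *pmela*, and again no interval overlapped its neighbour: 36.1 to 43.3 CPM in *stl* against 28.9 to 35.3 CPM in *stl*-sibling, and 8.76 to 13.4 CPM in *btl* against 14.0 to 18.5 CPM in *btl*-sibling.

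*tyr* encodes tyrosinase, the enzyme that starts melanin synthesis. Its level was 14.5 CPM in *stl*, 14.9 CPM in *stl*-sibling, 5.38 CPM in *btl*, 5.52 CPM in *btl*-sibling and 6.91 CPM in WT. The libraries formed an upper pair and a lower trio: the intervals of *stl* and *stl*-sibling overlapped each other, those of *btl*, *btl*-sibling and WT overlapped each other, and no interval of the pair met one of the trio. *tyrp1b*, the tyrosinase-related gene of the set that was detected, had 33 reads in *stl*, 36 reads in *stl*-sibling, 11 reads in *btl*, 6 reads in *btl*-sibling and 13 reads in WT, or 2.78, 2.96, 1.31, 0.466 and 1.12 CPM in that order. It showed the same pair and trio, but at these counts the pair and the trio were not separate. The interval of *btl*, 0.656 to 2.35 CPM, overlapped those of *stl*, 1.92 to 3.91 CPM, and *stl*-sibling, 2.07 to 4.09 CPM, and the intervals of *stl* and WT met at 1.92 CPM.

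Of the membrane transporters, *slc45a2*, which acts on the pH of the melanosome, had 6.66 CPM in *stl*, 6.98 CPM in *stl*-sibling, 2.27 CPM in *btl*, 2.88 CPM in *btl*-sibling and 3.63 CPM in WT. The lowest interval of the *stl* line, 5.28 to 8.31 CPM in *stl*, lay above the highest of the others, 2.61 to 4.90 CPM in WT. *oca2*, a melanosomal anion channel, had 5.40 CPM in *stl*, 5.09 CPM in *stl*-sibling, 0.956 CPM in *btl*, 0.855 CPM in *btl*-sibling and 2.59 CPM in WT. Its highest level was 6.31 times its lowest, against 3.07 times for *slc45a2*, and it was the gene of the set for which the *btl* line and WT stood furthest apart, although *btl* and *btl*-sibling held only 8 and 11 reads. *slc24a5*, the potassium-dependent sodium/calcium exchanger whose loss gives the golden phenotype in zebrafish, had 34 reads in *stl*, 17 reads in *stl*-sibling, 5 reads in *btl*, 12 reads in *btl*-sibling and 15 reads in WT. It was the gene of the set with the least separation of the lines, at 2.87 CPM in *stl*, 1.40 CPM in *stl*-sibling, 0.598 CPM in *btl*, 0.933 CPM in *btl*-sibling and 1.30 CPM in WT.

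The annotation holds 3 coding sequences for *oca2*, and all of its reads in a given library were assigned to just 1 of them. The sequence of 2598 nucleotides took the 64 reads of *stl* and the 8 reads of *btl*, that of 2583 nucleotides took the 62 reads of *stl*-sibling, and that of 2538 nucleotides took the 11 reads of *btl*-sibling and the 30 reads of WT. The *oca2* values given here are therefore sums over the gene, and the assignment to a single sequence was not used as a measure of isoforms. *mitfa* also has more than 1 sequence, and most of its reads went to that of 1218 nucleotides, at 46.4 of 56 reads in *stl*, 57 of 57 in *stl*-sibling, 21 of 21 in *btl*, 29 of 29 in *btl*-sibling and 38.6 of 41 in WT.

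*mitfa* encodes the transcription factor that specifies melanophores in zebrafish. It had 4.72 CPM in *stl*, 4.68 CPM in *stl*-sibling, 2.51 CPM in *btl*, 2.25 CPM in *btl*-sibling and 3.54 CPM in WT. Its range was the narrowest of the set, with the highest level 2.10 times the lowest, and the WT interval of 2.54 to 4.804 CPM overlapped those of all 4 other libraries. Scaled to coding length as well as to library size, as transcripts (TPM), the order of abundance in WT was *pmela* at 18.4 TPM, *dct* at 11.3 TPM, *tyr* at 3.38 TPM, *mitfa* at 2.37 TPM and *slc45a2* at 1.65 TPM, with *slc24a5*, *oca2* and *tyrp1b* each under 1 TPM at 0.846, 0.778 and 0.552 TPM.

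Across the set, the libraries of the *stl* line stood above the others. In 8 of the 8 detected genes the levels of *stl* and *stl*-sibling were both above those of *btl*, *btl*-sibling and WT, a pattern that 16.2% of the 20940 genes with any read showed. Among genes that reached the minimum level it held for 6 of 6 members and for 17.2% of 15362 genes. These members share their cells and each library, so they are not independent observations of the line. The counting interval of WT overlapped an interval of the *stl* line for *mitfa*, *tyrp1b* and *slc24a5*. For *slc24a5* the order rests on 17 reads in *stl*-sibling and 15 reads in WT. *btl* was the lowest of the 5 libraries for 4 of the 6 members, *dct*, *tyr*, *pmela* and *slc45a2*, beside 34.7% of all genes tested.

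The comparison of the phenotypically normal pools asked whether the lines differed in the absence of a tail phenotype. In *stl*-sibling against *btl*-sibling, 4 of the 6 members, *tyr*, *pmela*, *oca2* and *slc45a2*, were at least 2-fold higher, beside 1.07% of all genes tested, and 0 were lower, beside 1.04%. The largest difference was that of *oca2*, with a log2 fold change of 2.05 (1.36 to 2.68), which ranked 38 of 15362 from the top. *tyr* followed with 1.35 (0.97 to 1.74), *slc45a2* with 1.15 (0.64 to 1.66) and *pmela* with 1.08 (0.93 to 1.23). *dct* at 0.96 (0.72 to 1.20) and *mitfa* at 0.91 (0.34 to 1.49) were under the 2-fold line, but the intervals of all 6 members left out 0. The members' median was 1.11, against 0.00 over all genes tested. *tyrp1b*, below the minimum level, had 1.84 (1.05 to 2.47), and *slc24a5* had 0.40 (-0.39 to 1.17), the only detected member whose interval held 0.

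WT lay between the sibling pools for each of the 6 members. Against WT, 1 of the 6 members, *tyr*, was at least 2-fold higher in *stl*-sibling, with a log2 fold change of 1.05 (0.69 to 1.43), beside 0.892% of all genes tested, and 0 were lower, beside 0.82%. The members' median in that comparison was 0.78, and for *pmela* the log2 fold change was 0.71 (0.56 to 0.85), for *slc45a2* 0.86 (0.36 to 1.36), for *oca2* 0.86 (0.29 to 1.43) and for *dct* 0.51 (0.28 to 0.74). In *btl*-sibling against the same WT library, 1 of the 6, *oca2*, was at least 2-fold lower, with a log2 fold change of -1.19 (-1.89 to -0.43), beside 0.697% of all genes tested, and 0 were higher, beside 0.664%. The median there was -0.41, with -0.45 (-0.71 to -0.19) for *dct*, -0.37 (-0.54 to -0.21) for *pmela* and -0.30 (-0.74 to 0.14) for *tyr*. WT was thus nearer to *btl*-sibling than to *stl*-sibling for *tyr*, *pmela*, *slc45a2* and, by little, *dct*, and nearer to *stl*-sibling for *oca2* and *mitfa*.

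**Figure D2:**
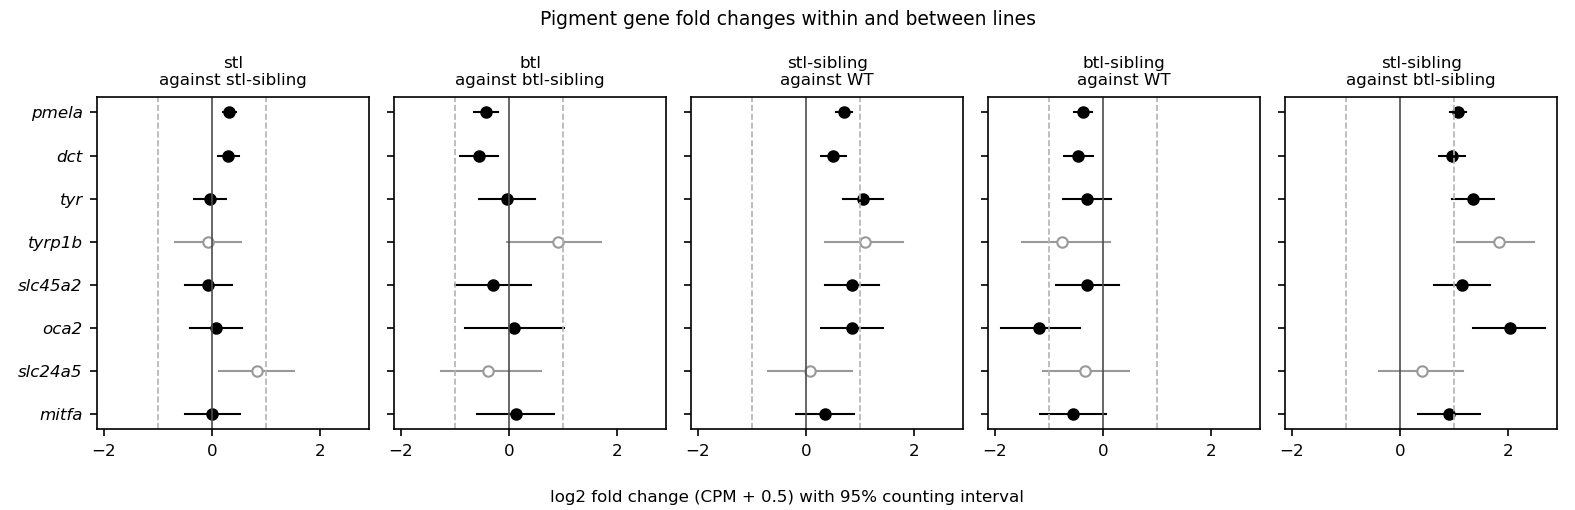
Log2 fold change of CPM + 0.5 for the 8 detected pigment genes in 5 comparisons, with 95% counting intervals as horizontal lines, filled points for the 6 genes that reached the minimum level, open points for the others and dashed lines at 2-fold. In the mutant against sibling panels no filled point passed a dashed line, whereas in *stl*-sibling against *btl*-sibling 4 of the 6 did.

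Mutants were then set against siblings of their own line, from which they were sorted by tail phenotype. With 1 pool of each, the mutation, the pool and its precise stage cannot be told apart. In *stl* against *stl*-sibling, 0 of the 6 members passed a 2-fold difference in either direction, beside 0.215% of all genes tested that were higher and 0.996% that were lower. The members' median log2 fold change was 0.04, against 0.00 over all genes. Only *pmela*, at 0.33 (0.21 to 0.44), and *dct*, at 0.30 (0.11 to 0.50), had intervals that left out 0 among the 6. *tyr* was at -0.04 (-0.33 to 0.26), *oca2* at 0.08 (-0.40 to 0.56), *slc45a2* at -0.06 (-0.49 to 0.36) and *mitfa* at 0.01 (-0.49 to 0.51), so a 2-fold difference lay outside the interval of each. Below the minimum level, *slc24a5* was higher in *stl*, with 34 reads against 17 in *stl*-sibling and a log2 fold change of 0.83 (0.13 to 1.51).

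In *btl* against *btl*-sibling, again 0 of the 6 members passed a 2-fold difference, beside 3.27% of all genes that were lower and 4.33% that were higher. The members' median was -0.16, against -0.02 over all genes. *dct*, at -0.55 (-0.91 to -0.20), and *pmela*, at -0.42 (-0.64 to -0.21), were the members whose intervals left out 0, both lower in *btl*. These 2 genes were higher in *stl* than in *stl*-sibling, and they are also those with the most reads and hence the narrowest intervals. *tyr* was at -0.03 (-0.55 to 0.48) and *mitfa* at 0.13 (-0.59 to 0.84). For *oca2*, which rests on 8 reads of *btl* and 11 reads of *btl*-sibling, the value was 0.10 (-0.81 to 1.02), the widest interval of the 6.

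Summed over the 8 detected genes, there were 2231 reads in *stl*, 1911 reads in *stl*-sibling, 460 reads in *btl*, 912 reads in *btl*-sibling and 1109 reads in WT, or 188 CPM, 157 CPM, 55.0 CPM, 70.9 CPM and 95.8 CPM in that order. The log2 ratio of these sums was 0.26 (0.17 to 0.35) in *stl* against *stl*-sibling, -0.37 (-0.53 to -0.20) in *btl* against *btl*-sibling and 1.15 (1.03 to 1.26) in *stl*-sibling against *btl*-sibling. *pmela* alone made up between 56.5% and 59.3% of the summed reads, and *dct* between 19.8% and 23.3%. Without these 2 genes the sum differed by 0.04 (-0.16 to 0.23) in *stl* against *stl*-sibling and by 0.01 (-0.35 to 0.37) in *btl* against *btl*-sibling, whereas *stl*-sibling against *btl*-sibling stood at 1.48 (1.22 to 1.75). The difference between lines was thus found with and without the abundant pair, whereas the intervals of the summed differences within lines held 0 without it.

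The mutants were also set against WT, a library that these comparisons share with those of the siblings. In *stl*, 0 of the 6 members were at least 2-fold lower than in WT, beside 1.52% of all genes, and 2 were at least 2-fold higher, beside 1.2%: *pmela* with a log2 fold change of 1.03 (0.89 to 1.17) and *tyr* with 1.02 (0.65 to 1.39). The others were at 0.93 (0.37 to 1.502) for *oca2*, 0.81 (0.60 to 1.03) for *dct*, 0.80 (0.29 to 1.31) for *slc45a2* and 0.37 (-0.17 to 0.91) for *mitfa*, and the median was 0.87. In *btl*, 0 of the 6 were at least 2-fold higher than in WT, beside 1.8% of all genes, and 2 were at least 2-fold lower, beside 2.56%: *oca2* with -1.09 (-1.89 to -0.22) and *dct* with -1.002 (-1.35 to -0.66). *pmela* stood at -0.80 (-1.01 to -0.59) and *tyr* at -0.33 (-0.85 to 0.17), with a median of -0.69. The calls of *dct* and *oca2* lay close to the 2-fold line and were lost when the trend over coding length was removed, at -0.97 for each.

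Proportions among the genes were taken as reads per read of *pmela*. The number of *dct* reads for every read of *pmela* was 0.354 in the *stl* library, 0.359 in *stl*-sibling, 0.350 in the *btl* library, 0.387 in *btl*-sibling and 0.410 in the WT library, and all 5 intervals overlapped. For *slc45a2* the ratio was between 0.0597 in *stl* and 0.0784 in *stl*-sibling, and for *tyr* it lay between 0.173 in *btl* and 0.127 in WT, again with overlapping intervals. The intervals also overlapped for *mitfa*, *slc24a5* and *tyrp1b*, although the ratio of *tyrp1b*, with few reads, was 0.0423 in *btl* and 0.0112 in *btl*-sibling. *oca2* had intervals that did not all overlap, with 0.0483 reads per *pmela* read in the *stl* library, 0.0572 in *stl*-sibling, 0.0308 in the *btl* library, 0.0204 in *btl*-sibling and 0.0476 in the WT library. The *btl*-sibling interval of 0.0101 to 0.0369 lay below that of *stl*-sibling at 0.0435 to 0.0739.

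**Figure D3:**
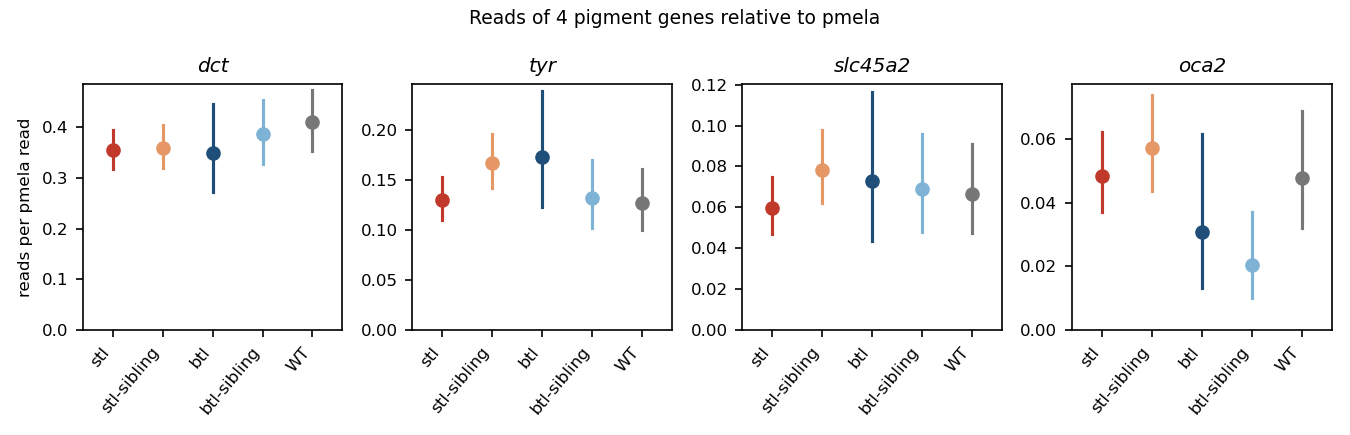
Reads of *dct*, *tyr*, *slc45a2* and *oca2* per read of *pmela* in each of the 5 libraries, with exact 95% intervals as vertical lines and the vertical axes starting at 0. The *dct* points ran between 0.350 and 0.410, whereas the *oca2* point of *btl*-sibling, at 0.0204, lay below that of *stl*-sibling, at 0.0572.

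The genes whose profile over the 5 libraries was most like that of the members were found by the root mean square difference of log2 CPM + 0.5, each centred on its own mean, from the average of the 6 members. The nearest was *sox8a*, which encodes a SoxE transcription factor, at a difference of 0.07. It had 7.44 CPM in *stl*, 7.23 CPM in *stl*-sibling, 2.39 CPM in *btl*, 2.72 CPM in *btl*-sibling and 3.63 CPM in WT, a row of levels close to that of *slc45a2*. It was followed by LOC108244039 at 0.08, LOC108251430 at 0.13, *sncb*, which encodes beta-synuclein, at 0.13, and LOC108228943 at 0.14. Among the members themselves *slc45a2* was closest to the average, at 0.10, followed by *pmela* at 0.11, *tyr* at 0.13 and *dct* at 0.14, whereas *mitfa* at 0.27 and *oca2* at 0.31 were furthest, with 91 and 173 other genes nearer to the average than they were. With 5 libraries, these distances describe likeness of profile only.

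Other genes of the melanosome, for its biogenesis, trafficking and cargo, were taken from a list of 46 symbols, of which 40 were matched and 35 reached the minimum level. In *stl*-sibling against *btl*-sibling, 1 of the 35 was at least 2-fold higher and 0 were lower, beside 1.07% and 1.04% of all genes tested, with a median of -0.12, against 1.11 for the melanin genes. That gene was *rab38c*, of a Rab family that brings tyrosinase to melanosomes in mammals, with 5.40 CPM in *stl*, 3.37 CPM in *stl*-sibling, 1.55 CPM in *btl*, 1.17 CPM in *btl*-sibling and 1.55 CPM in WT. *gpr143*, the melanosomal receptor of ocular albinism in humans, also followed the lines, with 11.0 CPM in *stl*, 10.02 CPM in *stl*-sibling, 4.78 CPM in *btl*, 5.13 CPM in *btl*-sibling and 5.96 CPM in WT. In all, 6 of the 35, *rab38c*, *gpr143*, *mlphb*, *atp7a*, *lyst* and *slc36a1*, had both libraries of the *stl* line above the other 3, where 17.2% of all genes tested did. That count is close to the share of all genes and says nothing particular of the list. For *lyst* the levels were nearly equal, with 69.2 CPM in *stl* and 68.1 CPM in *btl*.

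Most of the remaining genes of the list serve lysosome-related organelles and endosomes in many cell types. *hps5*, a subunit of the BLOC-2 complex, had 70.4 CPM in *stl*, 69.8 CPM in *stl*-sibling, 128.6 CPM in *btl*, 87.4 CPM in *btl*-sibling and 103.3 CPM in WT. Both libraries of the *stl* line thus lay below the other 3 for *hps5*. They did so too for *rab32a*, *rab27a* and *mlpha*. The level of *mlpha* was 46.8 CPM in *stl*, 53.9 CPM in *stl*-sibling, 99.0 CPM in *btl*, 62.4 CPM in *btl*-sibling and 67.1 CPM in WT. This reverse pattern was not counted over the list or over all genes. The 3 genes of the list with the highest mean TPM were *snapin*, *bloc1s1* and *bloc1s2*, subunits of the BLOC-1 complex. Their log2 fold changes were 0.01, -0.24 and 0.01 in *stl*-sibling against *btl*-sibling. In *btl* against *btl*-sibling these subunits stood at 0.83, 0.84 and 0.82, and 1 gene of the list, *bloc1s5*, was at least 2-fold higher, at 1.25 (0.87 to 1.63), beside 4.33% of all genes tested. Short coding sequences read high in *btl*, with a median of 0.62 in the shortest 10% of genes, and these values were not corrected for length. The median of the list was 0.02 in *stl* against *stl*-sibling and 0.18 in *btl* against *btl*-sibling.

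**Figure D4:**
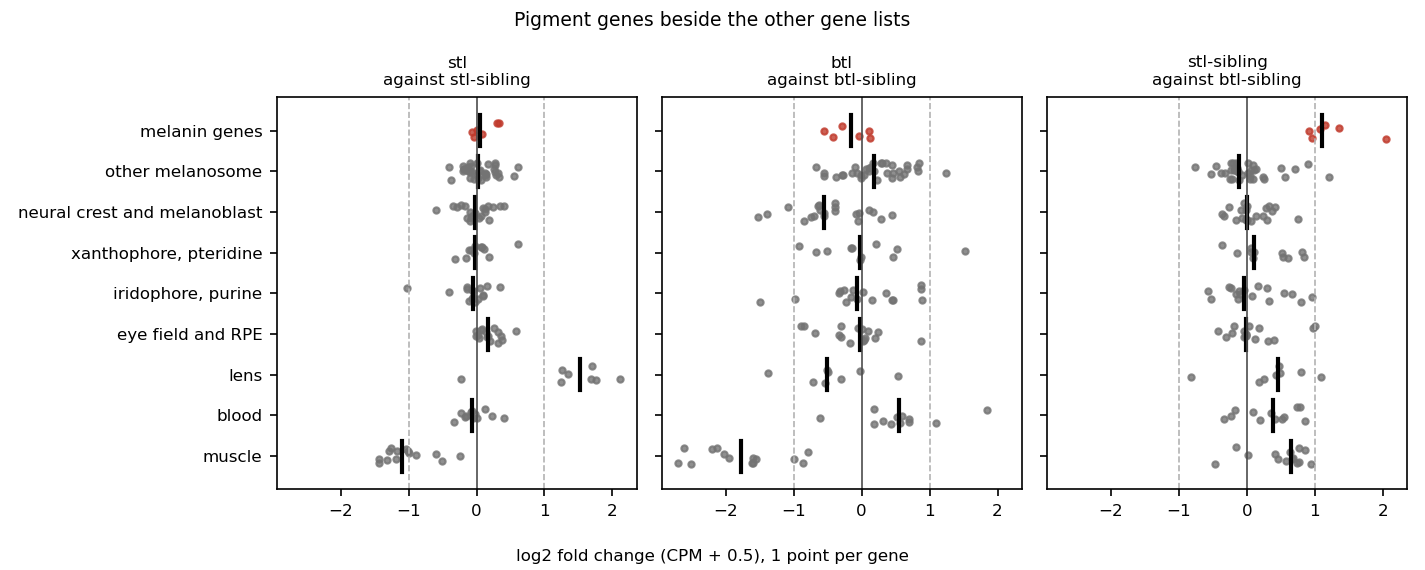
Log2 fold change of CPM + 0.5 for each gene that reached the minimum level, grouped by gene list down the page, with melanin genes in red, the median of each list as a vertical bar and dashed lines at 2-fold. In *stl*-sibling against *btl*-sibling the melanin genes stood at a median of 1.11 while the medians of the other pigment cell lists lay between -0.12 and 0.10, whereas in *stl* against *stl*-sibling the lens and muscle lists stood at 1.52 and -1.10 and the melanin genes at 0.04. Single genes of the other pigment cell lists spread in *stl*-sibling against *btl*-sibling from *slc7a11* at -0.77 to *rab38c* at 1.22.

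Genes of the neural crest and of melanoblasts, the precursors of melanophores, were measured at 21 of 27 matched. Their median was 0.01 in *stl*-sibling against *btl*-sibling. In that comparison 0 genes passed 2-fold, beside 1.07% of all genes tested that were higher and 1.04% that were lower. That count therefore says nothing particular of the list. In *btl* against *btl*-sibling 3 of the 21 were at least 2-fold lower and 0 were higher, beside 3.27% and 4.33% of all genes tested, with a median of -0.55. They were *erbb3a*, a receptor that migrating crest cells need, at -1.52 (-1.83 to -1.21), *ednrba*, an endothelin receptor of pigment progenitors, at -1.39 (-2.08 to -0.71), and *pax7a*, a factor of xanthophore progenitors, at -1.09 (-1.52 to -0.67). Of the 21, 17 were below 0 in that comparison and 4 above it, beside 51.6% and 48.3% of all genes tested. Reads of whole embryos do not show in which tissue these genes were lower, and a loss of pigment precursors was not tested. Against WT only 1 of the 21 was at least 2-fold lower in *btl*, beside 2.56% of all genes tested. It was *erbb3a* at -1.54 (-1.86 to -1.23), while *ednrba* was at -0.51 (-1.27 to 0.25) and *pax7a* at -0.77 (-1.22 to -0.33). For *erbb3a* in *stl* against *stl*-sibling the value was -0.02. *sox10*, the factor upstream of *mitfa* in zebrafish, had 25.9 CPM in *stl*, 19.5 CPM in *stl*-sibling, 19.1 CPM in *btl*, 19.7 CPM in *btl*-sibling and 16.3 CPM in WT, and so did not share the split by line. *kita*, the receptor that melanophores need to migrate and survive, had 14.7 CPM in *stl*, 13.0 CPM in *stl*-sibling, 8.49 CPM in *btl*, 7.50 CPM in *btl*-sibling and 9.15 CPM in WT, with the *stl* line above the others. In all, 6 of the 21 had both libraries of that line above the other 3, where 17.2% of all genes tested did. The 3 genes of the list with the highest mean TPM, the transcription factor genes *msx1a*, *tfap2a* and *snai1b*, stood at -0.33, 0.06 and -0.16 in *stl*-sibling against *btl*-sibling.

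The other pigment cells of fish were covered by lists of xanthophore and pteridine genes and of iridophore and purine genes. In *stl*-sibling against *btl*-sibling 0 of the 11 xanthophore genes and 0 of the 17 iridophore genes passed 2-fold, beside 1.07% of all genes that were higher and 1.04% that were lower, so the counts say nothing particular of these lists. Their medians were 0.10 and -0.04. Of the xanthophore genes 9 were above 0 and 2 below, and of the iridophore genes 8 were above 0 and 9 below. Both libraries of the *stl* line stood above the other 3 in 3 of the 17 iridophore genes, *pnp4a*, *alx4a* and *pnp6*, a share near the 17.2% of all genes tested. In *stl*-sibling against *btl*-sibling these were at 0.96 (0.29 to 1.62), 0.79 (0.14 to 1.44) and 0.66 (0.27 to 1.05). The same pattern held for 8 of the 11 xanthophore genes, with *slc2a15b* at 0.85 (0.39 to 1.30) and *spra* at 0.82 (0.42 to 1.22) in that comparison. Among the 8 was *gch2*, which opens pteridine synthesis, at 62.8 CPM in *stl*, 68.0 CPM in *stl*-sibling, 39.7 CPM in *btl*, 44.4 CPM in *btl*-sibling and 62.1 CPM in WT. *csf1ra*, the receptor that xanthophores need, had 22.5 CPM in *stl*, 21.4 CPM in *stl*-sibling, 7.53 CPM in *btl*, 14.8 CPM in *btl*-sibling and 11.6 CPM in WT. *pcbd1*, a dehydratase of the tetrahydrobiopterin cycle with uses outside pigment cells, was higher in *btl*, at 1.52 (1.41 to 1.62) against *btl*-sibling and 1.60 (1.49 to 1.71) against WT. Of the iridophore genes *ltk*, the receptor that specifies that lineage, was lower in *btl*, at -1.49 (-1.94 to -1.06) against *btl*-sibling and -1.04 (-1.51 to -0.59) against WT. The most abundant genes of the iridophore list, *paics*, *atic* and *gart*, make purines in all cells and stood at 0.33, 0.30 and -0.26 in *stl*-sibling against *btl*-sibling. *qdpra*, which regenerates tetrahydrobiopterin and was among the 3 most abundant xanthophore genes with *pcbd1* and *gch2*, was at 0.07.

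The retinal pigment epithelium is the other source of these transcripts, and its part in the result was not tested. Of 21 matched eye field and pigment epithelium genes 16 reached the minimum level, with medians of 0.16 in *stl* against *stl*-sibling, -0.02 in *btl* against *btl*-sibling and -0.01 in *stl*-sibling against *btl*-sibling. Both libraries of the *stl* line stood above the other 3 in 6 of the 16, where 17.2% of all genes tested did. These were *otx1*, *rx3*, *pax6b*, *pax2b*, *lhx2b* and *mab21l2*. The summed level of the 21 matched genes was 157 TPM in *stl*, 134 TPM in *stl*-sibling, 84.4 TPM in *btl*, 133 TPM in *btl*-sibling and 113 TPM in WT. Genes in general read low in *btl* on the TPM scale. The median log2 fold change of all genes tested was -0.55 against *btl*-sibling and -0.30 against WT. A sum and a median over genes are unlike measures, so whether the low sum in *btl* is particular to this list was not tested. In *btl* and *btl*-sibling the sums were 565 and 599 TPM for the other melanosome genes and 243 and 447 TPM for the neural crest list. They were 980 and 649 TPM for the xanthophore list and 972 and 1029 TPM for the iridophore list. *lhx2b*, a factor of the eye field and optic vesicle, followed the lines at 18.9 CPM in *stl*, 17.2 CPM in *stl*-sibling, 9.92 CPM in *btl*, 8.32 CPM in *btl*-sibling and 9.24 CPM in WT. It was the gene of this list at least 2-fold higher in *stl*-sibling against *btl*-sibling, at 1.003 (0.68 to 1.34), beside 1.07% of all genes tested. The most abundant genes of the list, *mab21l2*, *six3a* and *otx1*, of the early eye and forebrain, were at 0.40, -0.31 and 0.12 in that comparison. *rpe65a*, a visual cycle gene of the mature epithelium, was nearly undetected, with 8 reads in *stl*, 6 reads in *stl*-sibling, 4 reads in *btl*, 4 reads in *btl*-sibling and 11 reads in WT. Neither *rlbp1b*, *stra6* nor *best1*, also genes of that epithelium, had both libraries of the *stl* line above the other 3. *rlbp1b* had 2.53, 2.55, 2.63, 2.57 and 3.97 CPM in that order of libraries. *best1*, below the minimum level, had 0.844, 1.15, 3.83, 2.10 and 1.90 CPM.

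Genes of tissues that differentiate as the embryo grows were measured beside the melanin genes, since pools of mixed stage could differ in them, and their part in the result was not tested. Of the 8 lens genes tested, 7, the crystallin genes *cryba1b*, *cryba1l1*, *cryba2b*, *cryba4*, *crybb1*, *crybb1l1* and *crygn2*, were at least 2-fold higher in *stl* than in *stl*-sibling, beside 0.215% of all genes tested, with a median of 1.52, whereas the melanin genes stood at 0.04 in that comparison. In *stl*-sibling against *btl*-sibling the lens median was 0.45, and *crybb1* had 38.8 CPM in *stl*, 11.7 CPM in *stl*-sibling, 2.99 CPM in *btl*, 8.55 CPM in *btl*-sibling and 8.29 CPM in WT. Of the 14 muscle genes tested, 9 passed a 2-fold difference downward in *stl* against *stl*-sibling, beside 0.996% of all genes, and 11 in *btl* against *btl*-sibling, beside 3.27%, with medians of -1.10 and -1.78, and their median in *stl*-sibling against *btl*-sibling was 0.65. The actin gene *acta1b* had 222 CPM in *stl*, 498 CPM in *stl*-sibling, 76.8 CPM in *btl*, 298 CPM in *btl*-sibling and 245 CPM in WT. The muscle genes at least 2-fold lower in *btl* against both *btl*-sibling and WT were *myog*, *myf5*, *mylpfb*, *myl1*, *tnnt3a*, *ckmb*, *acta1b*, *actn3b*, *neb* and *atp2a1*. The study reported that a somite muscle marker was lost from the tail of both mutants, and it proposes a primary muscle defect in *btl*. In the mutants the muscle list therefore cannot be read as a sign of stage alone. Of the 12 blood genes tested, 2 were at least 2-fold higher in *btl* than in *btl*-sibling, beside 4.33% of all genes, the globin gene *hbae5* at 1.85 (1.70 to 1.99) and the carbonic anhydrase gene *cahz* at 1.097, which with *urod*, of haem synthesis, were the most abundant of the list. *hbae5* had 53.5 CPM in *stl*, 45.5 CPM in *stl*-sibling, 154 CPM in *btl*, 42.5 CPM in *btl*-sibling and 159 CPM in WT. For this gene *btl* thus stood beside WT, and *btl*-sibling was low together with both libraries of the *stl* line. The blood medians were -0.06 in *stl* against *stl*-sibling, 0.54 in *btl* against *btl*-sibling and 0.39 in *stl*-sibling against *btl*-sibling. The medians of all 3 lists in *stl*-sibling against *btl*-sibling had the sign of the melanin genes and were below their 1.11. Both libraries of the *stl* line stood above the other 3 in 6 of the 8 lens genes, 3 of the 12 blood genes and 0 of the 14 muscle genes. Over all genes tested the share with this pattern was 17.2%. The line of origin, the clutch and the precise stage of each pool cannot be told apart in this design.

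Long coding sequences read lower and short ones higher in *btl*, with a median log2 fold change of -0.35 in the longest 10% and 0.62 in the shortest 10% of genes in *btl* against *btl*-sibling. With the median of genes of like length removed, the members' median in that comparison was -0.08, in place of -0.16, and that in *stl*-sibling against *btl*-sibling was 1.13, in place of 1.11. The value of *pmela* in *btl* against *btl*-sibling was then -0.25, in place of -0.42. Values of the other gene lists are given with the length trend left in.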

How the data were processed

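RNA-seq libraries of pooled embryos, 1 each for *stl*, *stl*-sibling, *btl*, *btl*-sibling and WT, were used as the authors deposited them. The authors trimmed the reads, quantified them over the coding sequences of assembly ASM164957v2 with Salmon (version 1.5.0), and deposited for each library the expected counts and the TPM of 37181 coding sequences. A joined table of the expected counts was checked against these, with a largest difference of 0. The deposited RPKM table and NOISeq comparisons (counts, log2 ratio, difference, probability and ranking of mutant, sibling and WT pairs) were not used. The labels name TRI reagent and TruSeq where the methods name RNeasy and a directional protocol, and strand was not used here.

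Expected counts were summed over genes through protein accessions (37146 coding sequences, 22090 genes) without rounding, and CPM were scaled with the TMM factors of edgeR 4.0.16 (R 4.3.3). Further steps used Python 3.11.15, numpy 2.4.6, pandas 2.3.3, scipy 1.17.1 and matplotlib 3.10.9. Fold changes are log2 ratios of CPM + 0.5, which understates differences of low genes, and are printed with 95% intervals that come from the Clopper-Pearson (exact binomial) limits of the share of reads in each library of a pair, at the CPM + 0.5 scale. The minimum for a comparison was a mean of 2 CPM, which 15362 genes (69.5%) reached, and a 2-fold difference was the threshold. With 1 library per group no test across genes was made and no p-value is given. The scripts were tested on simulated data.

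The members and gene lists were chosen with earlier results of these data known. The text was to name all members, the 5 genes nearest to their profile and, from each list, the 3 genes highest in TPM and those at least 2-fold changed in a mutant against both sibling and WT. Of the others, *rab38c*, *gpr143*, *mlphb*, *atp7a*, *lyst*, *slc36a1*, *bloc1s5*, *hps5*, *mlpha*, *rab32a*, *rab27a*, *slc7a11*, *ednrba*, *pax7a*, *sox10*, *kita*, *csf1ra*, *slc2a15b*, *spra*, *pnp4a*, *alx4a*, *pnp6*, *lhx2b*, *rx3*, *pax6b*, *pax2b*, *rpe65a*, *rlbp1b*, *stra6* and *best1* were named after their values were seen. Paralogues were to be found by gene description, which could not be done with the annotation table used. Alternatives were library size alone, DESeq2 1.42.0 size factors, TPM, pseudocounts of 0.1 and 2 CPM, no minimum, a minimum of 10 CPM, single coding sequences, removal of the trend over coding length and the mean of the 3 normal libraries as reference.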

Additional observations from a re-analysis of the deposited data

Results flagged for a closer look

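*dct*, *pmela* and *oca2* differed in opposite directions in the *stl* and *btl* lines, with counting intervals that left out 0 on each side. The difference between the lines was not tested, since each group has 1 library. The log2 fold change of *dct* was 0.30 for *stl* against *stl*-sibling and -0.55 for *btl* against *btl*-sibling, and *pmela* had 0.33 and -0.42 in the same comparisons. With the trend over coding length removed, *pmela* was at -0.25 in *btl* against *btl*-sibling. Against the shared WT library, *dct* was at 0.51 in *stl*-sibling and -0.45 in *btl*-sibling, *pmela* at 0.71 and -0.37, and *oca2* at 0.86 and -1.19. The mutants showed the same opposition against WT, with 0.81 in *stl* and -1.002 in *btl* for *dct*, 1.03 and -0.80 for *pmela*, and 0.93 and -1.09 for *oca2*.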

How the results depend on the processing

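No paired analysis was possible because each group has 1 library. Of 65 recomputed medians of the members, 63 stayed between the median of the members' lower interval limits and that of their upper limits. That range is wide, at -0.72 to 0.45 around -0.16 in *btl* against *btl*-sibling, and is not an interval of the median. Of 506 values of single members, 482 stayed within the counting interval of the value given. Some could not move, since the minimum does not enter a gene's value and a gene may have just 1 coding sequence. Set against the mean of the 3 normal libraries in place of the sibling, the median was 0.69 in *stl* and -0.91 in *btl*, with 2 members lower in *btl*. Counts of members past 2-fold rest on values near the line, and 19 of 130 moved by more than 1.5 times. *btl* against WT, with 2 lower, had 1 with DESeq2 size factors, at a minimum of 10 CPM or with single coding sequences, and 0 with a pseudocount of 2 CPM or the length trend removed. *stl* against WT, with 2 higher, had 1 with a pseudocount of 2 CPM, at a minimum of 10 CPM or with the length trend removed. *stl*-sibling against WT, with 1 higher, had 2 with no minimum, and 0 with a pseudocount of 2 CPM or a minimum of 10 CPM. *btl*-sibling against WT, with 1 lower, had 0 with TPM, a pseudocount of 2 CPM, a minimum of 10 CPM or single coding sequences. *stl*-sibling against *btl*-sibling, with 4 higher, had 2 with TPM and 1 at a minimum of 10 CPM, where only 2 members were compared. With TPM the median of all genes was -0.55 in *btl* against *btl*-sibling, where 1 member, *dct*, was then lower, and the members' median stood -0.03 from that of all genes. With only the most-read coding sequence, *oca2* reversed to 1.54 in *btl* against WT, because its reads went to other sequences in other libraries. Depth limits *tyrp1b*, *slc24a5* and *oca2*, with under 20 reads in *btl* and *btl*-sibling. The sums without *pmela* and *dct* and the TPM levels were added after seeing the data.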
